A study of Mus musculus with 10 samples.

Results

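Btn1a1, Cldn13, Tmem184a and Fam214b are 4 of the genes whose promoters the study selected for capture as activated by GATA1, and their chromatin accessibility was followed here gene by gene. They were chosen by name, and they make up 4 of the 21911 protein-coding genes with an annotated transcript start. For each of them, all ATAC-seq peak summits from 100 kb upstream to 100 kb downstream of the annotated gene span were collected, which gave 70 of the 28981 regions in the whole series. ATAC-seq marks open DNA by the cuts of the Tn5 transposase. The series holds 10 G1E-ER4 libraries in 5 groups of 2. The untreated group is called 0 h, and the other groups received β-estradiol (1e-07 M) for 2, 6, 12 or 24 h. G1E-ER4 is a mouse erythroid progenitor line without a working Gata1 gene that carries GATA1 fused to the ligand-binding domain of the estrogen receptor, so the hormone switches the factor on. All groups, 0 h included, carry that fusion and grew with stem cell factor and erythropoietin. The labels do not say whether the 2 libraries of a time point came from separate cultures, while the study describes its ATAC-seq replicates as independent experiments.

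GATA1 drives red cell maturation by binding short GATA motifs in promoters and enhancers, often beside TAL1, and such enhancers can lie many kilobases from the gene they serve. Open distal regions near a gene are therefore read together with its promoter. Btn1a1 encodes butyrophilin, a membrane glycoprotein of the immunoglobulin superfamily best known from the milk fat globule. Cldn13 encodes a claudin, a family of proteins with several membrane spans that is best known from tight junctions. Tmem184a encodes a protein with several membrane spans. The label of membrane protein genes was not checked for Fam214b, for which the files give only the symbol. No RNA was measured in the files analysed here, so that the genes are activated is the label of the study and not a result.

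The sequences that carry the results are given first. Each is written 5′ to 3′ on the minus strand of GRCm38 (mm10), which is the strand of all 4 genes, and was read from the RefSeq assembly. The 5 region sequences are the 201 bases around the middle summit of the region, with capitals at matches to the GATA motif (AGATAA or TGATAA, on either strand) and to the TAL1-GATA composite, in which CTG stands 7 or 8 bases before such a GATA motif on the same strand. Because the sequences are shown on the minus strand, a match on the plus strand appears as its reverse complement. The first is the region in the last intron of Btn1a1 (chr13:23459390-23459590), the next 2 are the regions that flank Cldn13 (chr5:134913833-134914033 and chr5:134919170-134919370), the next lies upstream of Tmem184a (chr5:139830792-139830992), and the last lies in an intron of Unc13b upstream of Fam214b (chr4:43114719-43114919).
Btn1a1 intron: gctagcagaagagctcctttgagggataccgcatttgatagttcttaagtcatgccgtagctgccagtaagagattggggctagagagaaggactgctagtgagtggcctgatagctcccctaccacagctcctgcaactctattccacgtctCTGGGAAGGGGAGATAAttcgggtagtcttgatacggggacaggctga
Cldn13 past the gene end: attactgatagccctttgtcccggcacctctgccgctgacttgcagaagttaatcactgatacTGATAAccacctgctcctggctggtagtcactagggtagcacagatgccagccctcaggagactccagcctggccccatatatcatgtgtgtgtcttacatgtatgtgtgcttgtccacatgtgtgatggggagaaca
Cldn13 upstream: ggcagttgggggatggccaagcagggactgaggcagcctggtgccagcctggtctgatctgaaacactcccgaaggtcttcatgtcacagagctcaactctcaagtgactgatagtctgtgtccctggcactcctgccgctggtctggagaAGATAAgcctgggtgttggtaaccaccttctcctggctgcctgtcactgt
Tmem184a upstream: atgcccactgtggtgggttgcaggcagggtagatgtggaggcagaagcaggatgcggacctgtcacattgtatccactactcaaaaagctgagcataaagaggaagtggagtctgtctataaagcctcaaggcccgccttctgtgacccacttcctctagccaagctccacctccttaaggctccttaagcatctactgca
Fam214b far upstream: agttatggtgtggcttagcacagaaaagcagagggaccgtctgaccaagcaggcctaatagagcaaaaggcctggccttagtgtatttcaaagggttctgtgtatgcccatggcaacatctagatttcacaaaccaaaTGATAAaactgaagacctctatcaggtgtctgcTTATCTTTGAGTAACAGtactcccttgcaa

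The guide RNAs that the study designed to bring dCas9 to these promoters show which bases were aimed at, and they were found for Btn1a1 and Fam214b. The same search found no guide under the names Cldn13 and Tmem184a, so none was analysed for them. In the lines below the 20 bases of each guide are in lower case and the adjoining PAM in the genome is in capitals.
Btn1a1 guide a: agccacagagttaaattcacAGG
Btn1a1 guide b: agcctgtgaatttaactctgTGG
Btn1a1 guide c: gagttaaattcacaggctgaTGG
Fam214b guide: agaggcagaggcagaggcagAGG
Each Btn1a1 guide matched the genome exactly at 1 place. The matches were chr13:23466123-23466142 on the minus strand, chr13:23466118-23466137 on the plus strand and chr13:23466116-23466135 on the minus strand, so the guides overlap each other, and their ends nearest to the gene lie 215 to 222 bases upstream of its start. The Fam214b guide was listed 3 times with the same letters. It matched chromosomes 1 to 19, X and Y exactly at 31711 positions, 29191 of them followed by an NGG PAM, and these fell into 2632 places more than 100 bases apart. Within 1 kb of the Fam214b start it matched at 39 overlapping positions, from chr4:43046373 to 43046620, because the letters agaggc repeat there over 248 bases. The 250 bases upstream of that start show the repeat, taken from the RefSeq promoter table (GRCm38.p6, chr4:43046221-43046470, minus strand) with capitals where the guide matches.
Fam214b upstream of the start: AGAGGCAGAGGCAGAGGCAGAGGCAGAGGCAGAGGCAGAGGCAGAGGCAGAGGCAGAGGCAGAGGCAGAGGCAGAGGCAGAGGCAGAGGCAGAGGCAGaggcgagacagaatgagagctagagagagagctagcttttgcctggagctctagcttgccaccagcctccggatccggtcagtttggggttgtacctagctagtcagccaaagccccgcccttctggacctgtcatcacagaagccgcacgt
In the deposited lists, the summit of any library nearest to a Btn1a1 guide lay 367.5 bp from its middle. Among copies of the Fam214b guide in the window of that gene, the nearest summit lay 245.5 bp away. Distances to copies elsewhere were not computed. Only reads with a unique position were kept by the authors, which limits what the lists can show inside such a repeat.

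A region is a stretch in which summits of the 10 lists, each widened by 250 bp on both sides, overlap. It is called a promoter region when its middle summit lies within 1 kb of an annotated start of a protein-coding gene, and distal otherwise. Starts of other kinds of genes, such as tRNA genes, were not used, so a distal region can lie at one. The lists held between 10698 and 19859 summits, and their scores are −log10 of the q-value of each peak in its own library, with no read totals. Scores were therefore compared only as ranks, and a rank is given below as the top percent of the library's own list, so that a small number is a strong peak. An absent summit means that no peak was called there, not that the DNA was closed. Of the promoters of 10 erythroid markers, 3 (Zfpm1, Epor and Tfrc) had a region in all 10 libraries and 6 in some, namely Nfe2 and Lmo2 in 7, Klf1 and Gfi1b in 4, Tal1 in 2 and Hbb-bs in 1, while Gata2 had none. None of the 10 promoters of B cell, T cell, macrophage and hepatocyte markers had a region in any library.

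The 4 promoters differed in whether they were listed at all. Fam214b had promoter regions in all 10 libraries, as did 25.8% of all protein-coding genes. Btn1a1 had a promoter region in 2 libraries, and 18.0% of genes likewise had one in some but not all. Cldn13 and Tmem184a had none in any library, as did 56.1% of genes. With a promoter distance of 2 kb, Cldn13 had a promoter region in 8 libraries and Btn1a1 in 5, while Tmem184a still had none. Of the other 18 captured activated genes, 8 had a region in all 10 libraries, 9 in some and 1, Alas2, in none. Cldn12 was the sole one of 33 claudins with a promoter region in all 10 libraries, Cldn3 had one in 4 libraries, and 31 had none. Among the 8 butyrophilin family genes, Btn1a1, Btn2a2 and Btnl10 had a promoter region in at least 1 library and none had it in all 10. Tmem184c had one in all 10 libraries and Tmem184b in 8, in contrast to Tmem184a, and Fam214a had none.

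**Figure D1:**
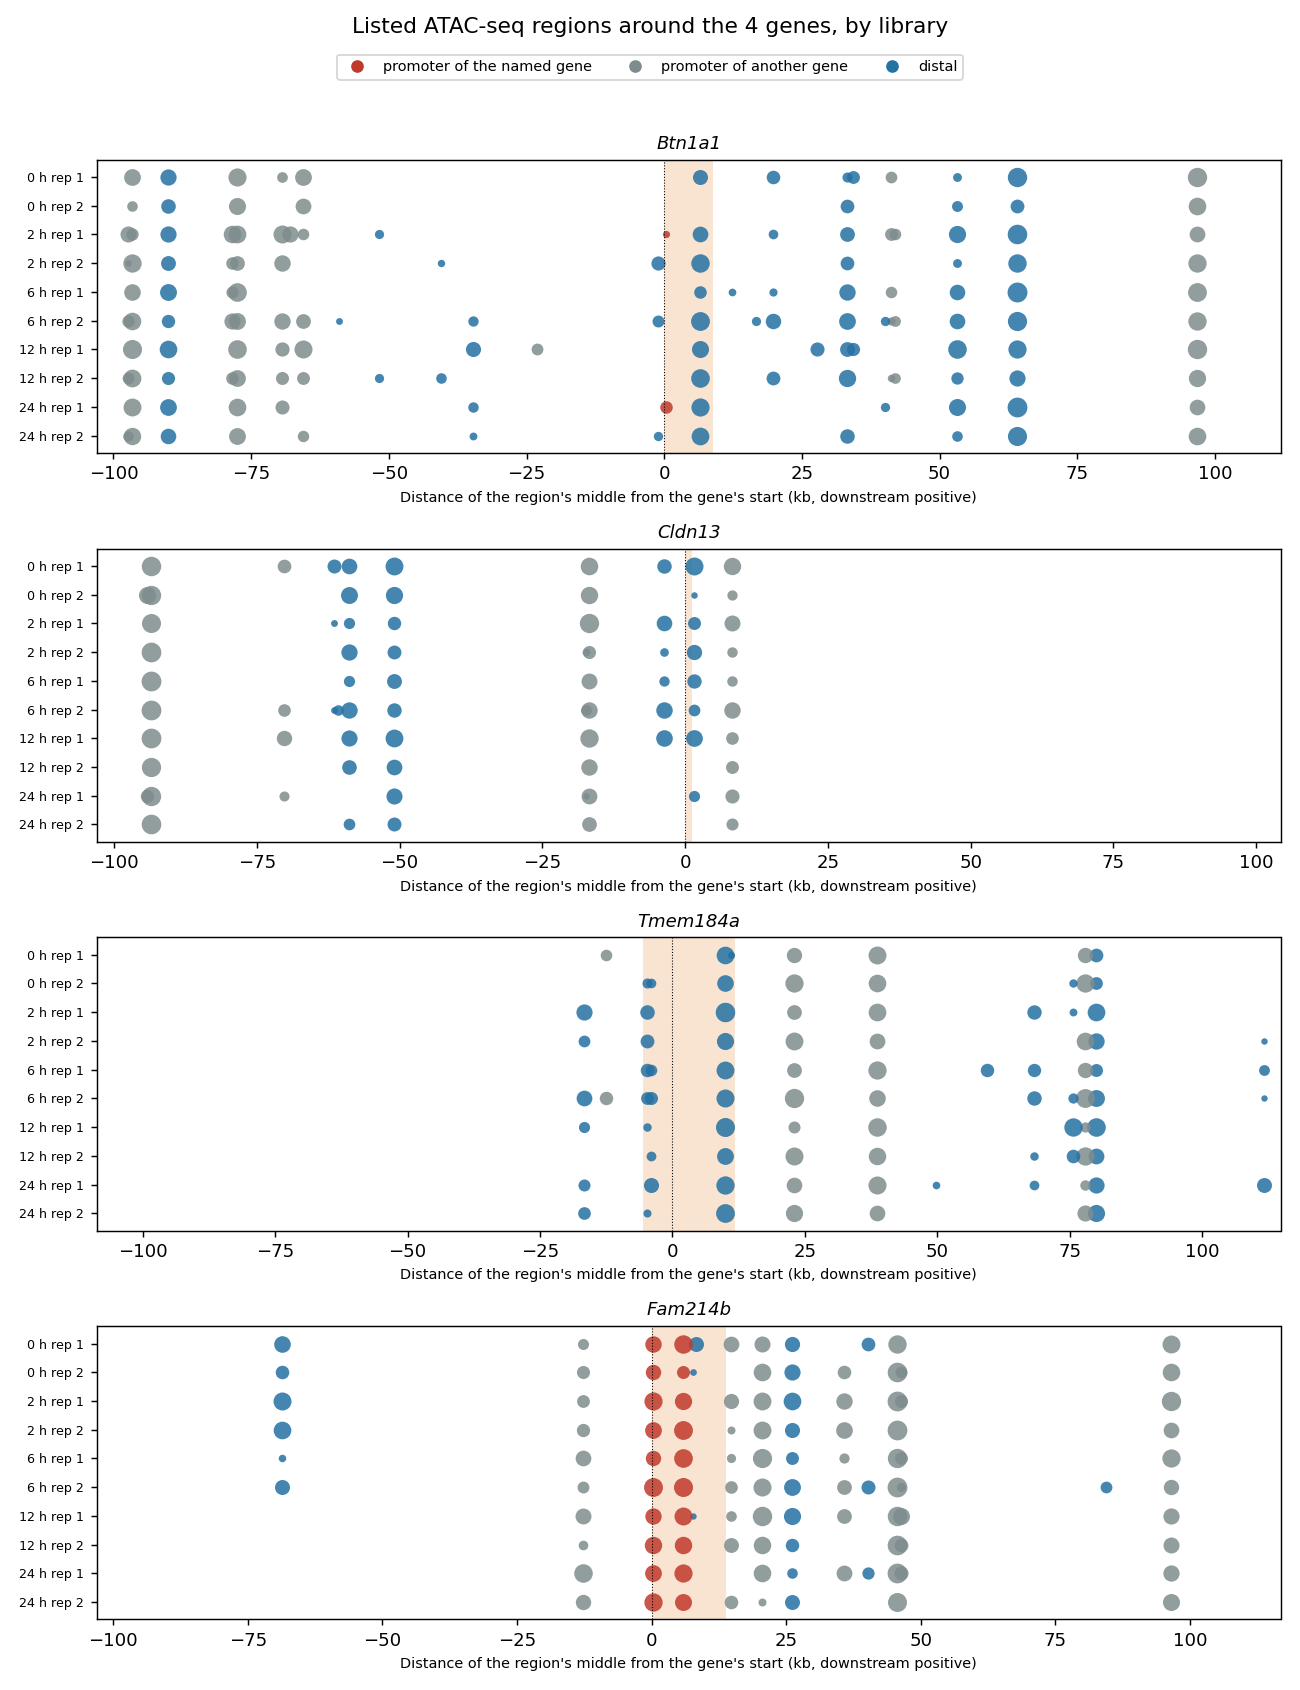
Regions with a listed summit around each gene. The horizontal axis is the distance of the region's middle from the gene's most upstream start in kb, with downstream positive, each row is 1 of the 10 libraries, larger circles are higher ranks in the library's own list, and the shaded band is the annotated gene span. Promoter circles (red) stand in all 10 rows at Fam214b, in 2 rows at Btn1a1 and in none at Cldn13 and Tmem184a.

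The promoter region of Btn1a1 (chr13:23465404-23466008, in the first intron, 0.247 kb downstream of the start) was weak where it was listed. It was present in 2 h replicate 1, in the top 96.7% of that list, and in 24 h replicate 1, in the top 67.3%. The other library of each of those time points lacked it, so neither time point was complete. Of the other 21910 genes, 7 shared this exact pattern of promoter presence, and those with the highest mean scores were Gli1, Pcdh1 and Myo1c.

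The region in the last intron of Btn1a1, 6.41 kb downstream of its start (chr13:23459163-23459831), was listed in 9 of 10 libraries and lacked only 0 h replicate 2. Its score was 6.67 in 0 h replicate 1. At 2 h the scores were 6.85 and 15.0 in replicates 1 and 2. They were 4.57 and 22.1 after 6 h, 7.83 and 17.2 after 12 h, and 9.72 and 12.0 after 24 h. As ranks these were the top 47.9% in 0 h replicate 1, 41.9% and 15.9% after 2 h, 66.9% and 11.9% after 6 h, 30.0% and 14.2% after 12 h, and 18.8% and 23.1% after 24 h. Replicate 2 ranked higher than replicate 1 at 2, 6 and 12 h, and the 6 h replicate 1 rank was below that of 0 h replicate 1, so the time points overlapped. The rank was not tested because 1 library has none, and 361 of the 28981 regions had the same presence. This region holds a TAL1-GATA composite at chr13:23459421-23459437, centred 61 bases from the middle summit, and it was the sole distal region in the Btn1a1 window with a GATA motif in the 201 bases.

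**Figure D2:**
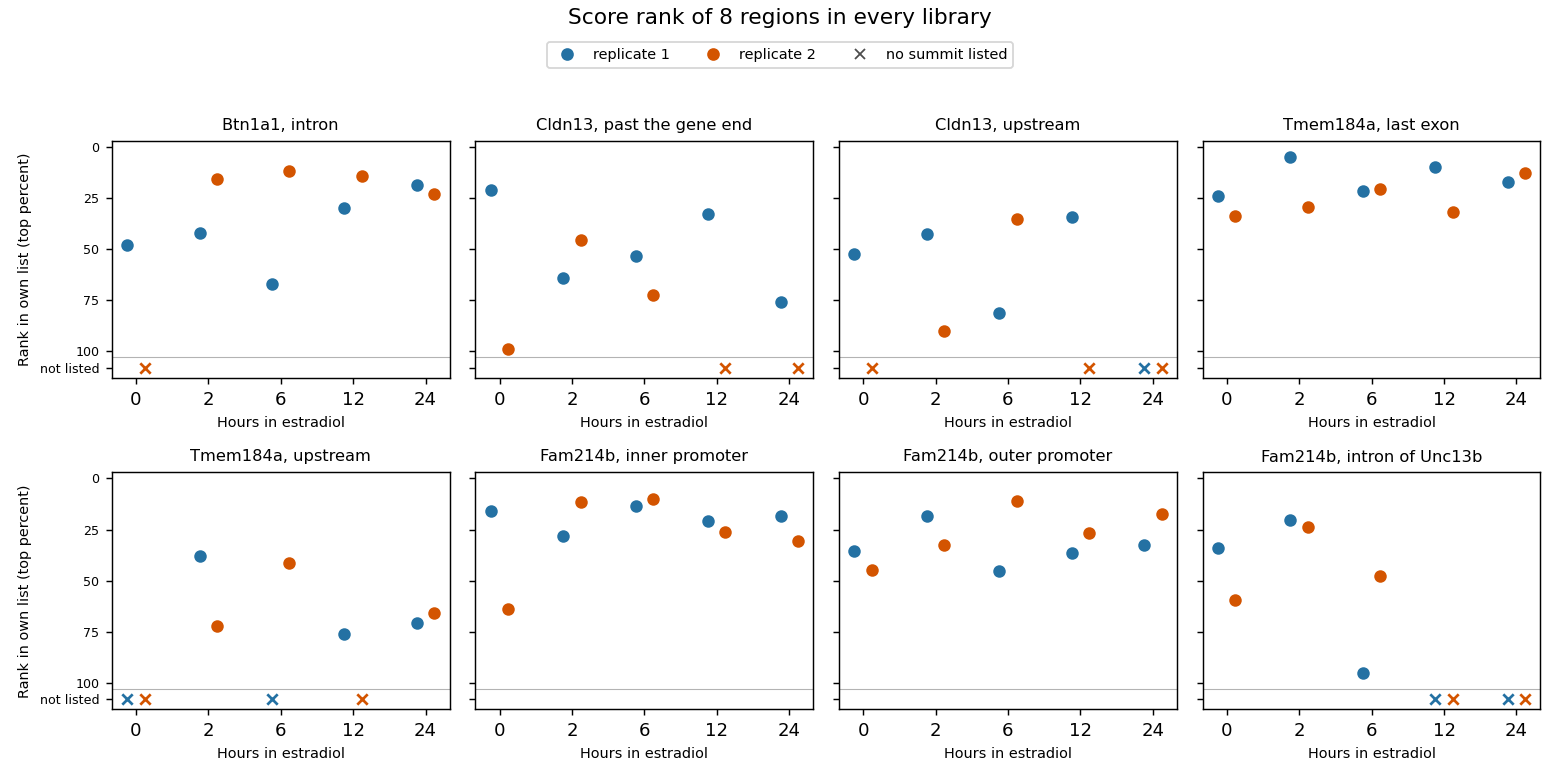
Rank of 8 regions in each library, as top percent of the library's own list on an inverted axis (0 is the strongest peak), against hours in estradiol. Circles are listed summits, crosses are libraries without one, and colours separate replicate 1 from replicate 2. The Btn1a1 intron region lacks only 0 h replicate 2, and the region in the Unc13b intron upstream of Fam214b is listed up to 6 h and in no library of 12 or 24 h.

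The Btn1a1 window held 28 regions, of which 1 was its own promoter region, 11 were promoter regions of other genes and 16 were distal. Its protein-coding neighbours include Btn2a2, another butyrophilin gene, and replication-dependent histone genes, which package newly made DNA. In all 10 libraries 6 regions were listed. They were the promoter regions of Zfp322a, Hist1h2bh and Hist1h3e, a region 2.67 kb from the start of Hist1h1d, and 2 intergenic regions nearest to Abt1, 53.1 and 64.0 kb downstream of the Btn1a1 start. The intergenic region at 64.0 kb (chr13:23400765-23402327) ranked in the top 6.38% and 57.5% at 0 h, 4.32% and 16.1% after 2 h, 0.464% and 7.93% after 6 h, 18.3% and 37.7% after 12 h, and 1.28% and 9.06% after 24 h. The 0 h libraries stood farther apart than those of any other time point, and every other time point overlapped the range between them. The limma estimate of its difference at 6 h against 0 h was 1.40 ± 0.718 (SE) on the normal score scale, which did not pass (limma adjusted p = 1).

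Gained regions of the Btn1a1 window, meaning those with a summit in both libraries of a time point and in neither 0 h library, numbered 3 of its 28 over the 4 time points. Of these, 2 were promoter regions of histone genes. Counted separately for 2, 6, 12 and 24 h, the gained regions of this window numbered 2, 1, 0 and 1. Over all 28981 regions 2.67% were gained after 2 h, 4.08% after 6 h, 2.47% after 12 h and 1.71% after 24 h. These shares belong to single time points. The share of all regions gained in any of them was not computed, so the total of 3 has no background here. The region at the Hist1h3f promoter (chr13:23544093-23544642) was gained at 2 and 6 h. Its ranks were the top 24.9% and 66.9% after 2 h and the top 69.6% and 37.7% after 6 h, and it was listed in 12 h replicate 2 (66.9%) and in no library of 24 h. Both gains were lost with summits widened by 500 bp. A region 0.907 kb from the start of Hist1h3e (chr13:23563024-23563591) was gained at 2 h, at the top 39.2% and 99.6%, where the second value is near the end of the list. The region 34.7 kb upstream of Btn1a1 (chr13:23500240-23501093), intergenic in GENCODE M21, was gained at 24 h, at the top 80.4% and 93.6%. It was also listed in 6 h replicate 2 and 12 h replicate 1. No region of this window was lost at any time point.

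Cldn13, a gene of 1278 bases, had no promoter region but was flanked by 2 distal regions that were listed in most libraries up to 6 h. The region just past its end, 1.59 kb downstream of the start (chr5:134913239-134914335), was in 8 libraries. Its ranks were the top 20.9% and 99.0% at 0 h, 64.0% and 45.7% after 2 h, 53.5% and 72.3% after 6 h, 32.7% in 12 h replicate 1 and 75.8% in 24 h replicate 1. Replicate 2 of 12 h and of 24 h lacked it. The 2 libraries at 0 h stood at opposite ends of this range, and all later ranks lay between them.

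The region 3.74 kb upstream of Cldn13 (chr5:134918975-134919647) was in 6 libraries. It ranked in the top 52.4% in 0 h replicate 1, 42.7% and 90.0% after 2 h, 81.1% and 35.2% after 6 h, and 34.0% in 12 h replicate 1. It was listed in neither 24 h library, and 0 h replicate 2 lacked it as well, so it was not counted as lost. Each of these flanking regions holds a single GATA motif, at chr5:134913965-134913970 and chr5:134919214-134919219.

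The Cldn13 window held 12 regions, with 6 promoter regions of other genes and 6 distal regions, and none was gained or lost at any time point. Those in all 10 libraries were the promoter regions of Tmem270, Mettl27 and Abhd11 and the distal region 51.0 kb upstream (chr5:134966142-134966872). The Abhd11 region was the strongest, between the top 1.32% and the top 9.94% of each list. The distal region at 51.0 kb lies 19.6 kb from Cldn4, a claudin neighbour with no promoter region in any library. It ranked in the top 21.4% and 28.4% at 0 h, 60.7% and 57.1% after 2 h, 49.0% and 53.0% after 6 h, 22.3% and 42.0% after 12 h, and 38.6% and 56.4% after 24 h. Both 0 h libraries ranked above both libraries of 2, 6 and 24 h, while 12 h overlapped 0 h. The differences were −1.34 ± 0.554 (SE) at 2 h and −1.43 ± 0.554 after 6 h on the normal score scale. These had the smallest unadjusted limma p-values of the window regions, 0.0284 and 0.0206, and did not pass (limma adjusted p = 1 for both). The promoter region of Cldn3, the nearest claudin beyond, was listed in 0 h replicate 1, 6 h replicate 2, 12 h replicate 1 and 24 h replicate 1.

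Tmem184a had no region within 1 kb of either annotated start, at 139814283 and 139813243 on chromosome 5, but had open regions at both ends of its span. In the last exon, in the 3′ UTR, a region 10.0 kb downstream of the start (chr5:139803825-139804726) was listed in all 10 libraries. It ranked in the top 23.8% and 34.0% at 0 h, 4.72% and 29.1% after 2 h, 21.6% and 20.4% after 6 h, 9.98% and 31.7% after 12 h, and 17.3% and 12.5% after 24 h. Both libraries of 6 h and of 24 h ranked above both 0 h libraries, and the difference at 24 h was 0.61 ± 0.601 (SE) on the normal score scale (limma adjusted p = 1). The nearest annotated start, 6.77 kb away, belongs to the neighbouring Mafk, a gene for a small MAF transcription factor that the study captured too. Its GATA motif, read on the plus strand, is shown in 26 bases at chr5:139804321-139804346 on the minus strand.
Tmem184a last exon: ccacacctacTTATCTgacttctggg

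At the other end of the Tmem184a span, 2 regions lie 4.01 and 4.72 kb upstream of the start in an intron of a longer transcript. The nearer region (chr5:139817865-139818559) was in 5 libraries and the farther (chr5:139818650-139819329) in 7. The farther region ranked between the top 51.8% in 2 h replicate 1 and the top 92.7% in 24 h replicate 2, and it was missing in 0 h replicate 1, 12 h replicate 2 and 24 h replicate 1. No time point was separated from 0 h in either region. With the comprehensive transcript set, whose longest Tmem184a transcript starts at 139819917, the farther region would count as a promoter region, still in 7 libraries.

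Upstream of Tmem184a, an intergenic region 16.6 kb from the start (chr5:139830546-139831236) was gained at 2 and 24 h. It ranked in the top 37.8% and 72.1% after 2 h, the top 41.6% in 6 h replicate 2, the top 76.1% in 12 h replicate 1, and the top 70.5% and 65.9% after 24 h. Replicate 1 of 6 h and replicate 2 of 12 h lacked it, as did both 0 h libraries. This exact presence was found in 5 of the 28981 regions, and regions nearer to the start that were not called had counts of 4 and 6. No GATA motif was found in the 201 bases of the region at 16.6 kb, which says nothing of other letters or of GATA1. With lists cut to equal size the 24 h call was lost and the 2 h call was kept.

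The Tmem184a window held 15 regions, with 4 promoter regions of other genes and 11 distal regions. Besides the region in the last exon, the promoter regions of Mafk and Ints1 and a region in an intron of Micall2, 80.1 kb downstream, were in all 10 libraries. The Mafk promoter region ranked from the top 70.6% in 12 h replicate 1 to the top 7.44% in 6 h replicate 2. At 6 h, 2 distal regions were gained. The region 68.3 kb downstream (chr5:139745653-139746248) ranked in the top 61.4% and 52.7% after 6 h and was also in 2 h replicate 1, 12 h replicate 2 and 24 h replicate 1. The region at the far edge of the window, 112 kb downstream of the start (chr5:139702222-139703160), ranked in the top 78.1% and 99.5%, and the window edge at 139702485 cuts through it, so that the 6 h replicate 1 summit lies just outside. This gain was lost with lists of equal size. No region of this window was lost. The paper reports that the captured promoters of this locus came to contact several annotated enhancers after GATA1 was switched on. Accessibility at those promoters and enhancers, per the paper, changed little or not at all at the same time points, and it describes similar patterns at Btn1a1. Over its captured activated promoters as a set, and the enhancers in contact with them, the paper reports that accessibility rose during differentiation. The gained calls in this window rest only on listed summits, without a test of accessibility. The paper gives the enhancers of this locus by their distance from the Mafk start. Counted from the Mafk promoter region, the regions 112 and 10.0 kb downstream and 4.01 and 16.6 kb upstream of the Tmem184a start lie near those positions. Whether they are the same elements was not tested.

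Fam214b was the sole member with promoter regions in all 10 libraries, and it had 2. The outer region (chr4:43045580-43046387) covers the start at 43046220. It ranked in the top 35.4% and 44.8% at 0 h, 18.6% and 32.6% after 2 h, 45.3% and 11.2% after 6 h, 36.4% and 26.5% after 12 h, and 32.7% and 17.5% after 24 h. The inner region (chr4:43040050-43040698) covers the start at 43040288, and its middle lies 5.86 kb downstream of the outer start. It ranked in the top 15.7% and 63.9% at 0 h, 28.0% and 11.7% after 2 h, 13.5% and 9.82% after 6 h, 20.7% and 26.1% after 12 h, and 18.4% and 30.4% after 24 h. At the outer promoter both libraries of 2 and 24 h ranked above both 0 h libraries, whereas at the inner promoter those of 6 h did, and all other time points overlapped 0 h. The differences at 24 h were 0.56 ± 0.575 (SE) for the outer and 0.44 ± 0.585 for the inner region on the normal score scale, and neither passed (limma adjusted p = 1 for both).

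Across the 10 libraries, the promoter regions whose normal scores followed the outer Fam214b region most closely were those of Inafm1 (Pearson r = 0.930), Eif5b and Txndc9 (both 0.885). For the inner region they were those of Scyl2 (0.908), Arpc1a (0.864) and Lrrc29 (0.856). These are the highest of 5659 genes compared over 10 libraries that share their depth, and they are given as a description. Eif5b and Txndc9 had the identical value of 0.885323. A region within 1 kb of the starts of both genes counts for both, so they need not be separate regions.

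The sole region of the 4 windows that was lost at any time point was distal, 68.6 kb upstream of Fam214b in an intron of Unc13b (chr4:43114457-43115260). Unc13b encodes a protein that primes vesicles for release. It was listed in all 6 libraries of 0, 2 and 6 h and in none of the 4 libraries of 12 and 24 h. Its scores were 8.41 and 5.79 at 0 h, 10.1 and 11.9 after 2 h, and 2.60 and 8.05 after 6 h. As ranks these were the top 33.9% and 59.5% at 0 h, 20.4% and 24.0% after 2 h, and 95.2% and 47.8% after 6 h. It was called lost at 12 and 24 h, as were 1.40% of all regions at both time points, and 44 regions (0.152%) had its exact presence. The calls were kept with summits widened by 100 or 500 bp, with lists of equal size and with scores of at least 2. The region holds 2 GATA motifs, at chr4:43114743-43114748 and chr4:43114776-43114781, and the first is part of a TAL1-GATA composite (chr4:43114732-43114748).

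The Fam214b window held 15 regions, with 7 promoter regions of other genes and 6 distal regions beside its own 2. The promoter regions of Dnajb5, Vcp, Pigo and Unc13b were in all 10 libraries. That of Vcp, which encodes an ATPase that unfolds ubiquitin-tagged proteins, ranked between the top 1.29% and the top 16.5%. A distal region in an intron of Pigo, 26.1 kb downstream (chr4:43019685-43020557), was also in all 10 and ranked between the top 23.3% in 2 h replicate 1 and the top 79.6% in 24 h replicate 1. It holds a GATA motif 18.5 bases from its middle summit, on the side of lower coordinates. A region in an intron of Fam214b itself, 8.19 kb downstream of the start (chr4:43037781-43038281), was listed only in 0 h replicate 1, and it holds a TAL1-GATA composite.

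In the 4 windows together, 21 of the 70 regions were in all 10 libraries, a higher share than the 21.5% of all regions. In a single library there were 12 of the 70, a lower share than the 28.9% of all. Neither difference was tested. Counts of changed regions were small. At 2 h, 3 of 70 regions were gained, against 2.67% of all regions, and none was lost (1.15% of all). At 6 h, 3 were gained (4.08% of all) and none lost (0.759%). At 12 h none was gained (2.47%) and 1 was lost (1.88%), and at 24 h 2 were gained (1.71%) and 1 was lost (3.51%). As shares, 3 of 70 is 4.29%, 2 is 2.86% and 1 is 1.43%. The counts follow no test, since 2 libraries against 2 cannot reach an exact permutation p below 0.333, and with so few regions the shares near the background are no result about these genes.

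**Figure D3:**
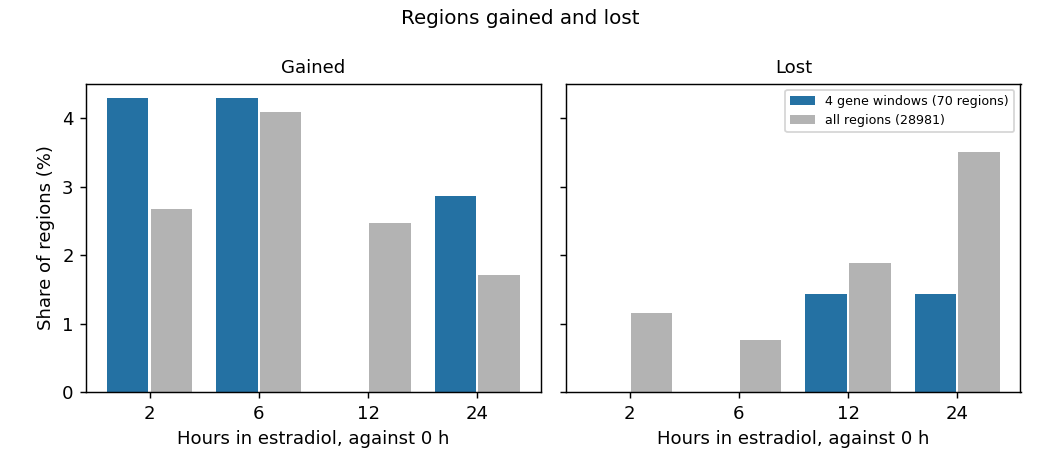
Share of regions gained (left) and lost (right) at 2, 6, 12 and 24 h against 0 h, in percent, for the 70 regions of the 4 gene windows and for all 28981 regions. Bars of the gene windows rest on 0 to 3 regions each, for example 3 of 70 (4.29%) gained at 6 h beside 4.08% of all.

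**Figure D4:**
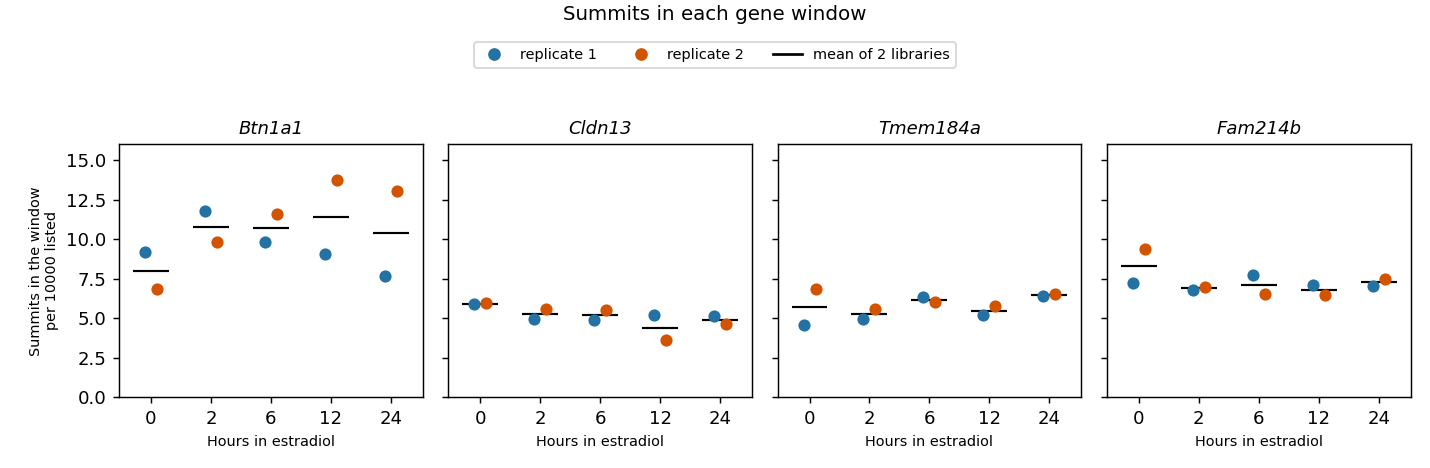
Summits in each gene window per 10000 summits in the library's list, against hours in estradiol, with a circle for each library and a bar for the mean of 2. Btn1a1 has the widest spread between libraries, from 6.84 in 0 h replicate 2 to 13.7 in 12 h replicate 2.

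Summit numbers were scaled to the size of each list. At Btn1a1 they were 9.18 and 6.84 per 10000 listed summits at 0 h and had a mean of 11.4 ± 3.30 (SD, n = 2) at 12 h, with 9.08 and 13.7 in its replicates, so 12 h replicate 1 lay within the 0 h range. Both libraries of 2 h (11.8 and 9.81) and of 6 h (9.85 and 11.6) lay above both 0 h libraries on this scale. Unscaled, 2 h replicate 2 and 6 h replicate 1 tied with 0 h replicate 1 at 14 summits. At Cldn13 the scaled mean was 5.94 ± 0.0604 at 0 h and 4.91 ± 0.328 after 24 h. On this scale both libraries of every later time point lay below both 0 h libraries. The unscaled Cldn13 counts did not fall early. Their mean was 8 summits in the untreated group, 8 after 2 h and 9 after 6 h, then 6.5 after 12 h and 6.5 after 24 h. The highest count, 11, was in 6 h replicate 2, which has the longest list (19859 summits). At Tmem184a the scaled mean was 5.71 ± 1.59 at 0 h and 6.48 ± 0.0862 after 24 h. At Fam214b it was 8.31 ± 1.55 and 7.27 ± 0.293, where the ranges of 0 and 24 h overlapped.

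Rank changes were tested with limma on the 6234 regions in all 10 libraries, of which 21 lie in the 4 windows. No region of the windows passed an adjusted p of 0.05 in any of the 4 comparisons with 0 h or in the linear trend, and 0 of all 6234 regions passed (0% called in each). At an unadjusted p below 0.05, between 173 and 260 of all regions and at most 1 of the 21 stood in each comparison. With a replicate term these were between 337 and 467 of all regions and at most 2 of the 21, and again none passed the adjusted threshold. The estimates and SEs given here are from the fit without that term. The 21 differences at 24 h had a median of 0.09 and ran from −0.90 to 1.40 on the normal score scale, with a median SE of 0.619.

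The GATA motif was found in 13 of the 70 window regions (18.6%) and in 11 of the 39 distal ones (28.2%), against 27.7% of all regions and 38.3% of all distal regions. It was found in 1 of 16 distal regions at Btn1a1, 4 of 6 at Cldn13, 3 of 11 at Tmem184a and 3 of 6 at Fam214b. The TAL1-GATA composite was in 4 of the 70 (5.71%), against 5.17% of all regions, and every composite is also a GATA match. The KLF motif (CCNCNCCC, either strand), the kind of letters that KLF1 binds, was in 23 of the 70 (32.9%), against 34.5% of all. A match is a description of the letters and not a site of binding.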

How the data were processed

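ATAC-seq peak lists of 10 G1E-ER4 libraries were analysed. Per the labels and the study's methods, the authors trimmed reads, aligned them to mm10, kept unique positions and called peaks in each library with MACS2 without a fragment model. Bowtie 1.0.0 is in the submitters' processing notes, whereas the methods name Bowtie2, so the aligner is unsettled, and no shift for the Tn5 cut is stated. The deposited lists give summits of 1 bp with a score that is −log10 of the q-value, whose lowest value is 1.30. Depth is unknown, and scores rise with it.

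Summits on chromosomes 1 to 19, X and Y were widened by 250 bp on each side and merged over the 10 lists. Transcript starts came from the GENCODE M21 basic set (41520 starts of 21911 genes), and a promoter region lay within 1 kb of one. Gained and lost regions were counted without a test. For regions in all 10 libraries, ranks were turned into normal scores and fitted with limma 3.58.1 (R 4.3.3) in 5 groups without a replicate term, with Benjamini-Hochberg adjustment over 6234 regions and a threshold of 0.05. The fit was tested on simulated data, where it missed most of the smaller shifts. The sample titles gave groups and replicate numbers. The differences between replicates 2 and 1 correlated over regions for each of 10 pairs of time points (r from 0.177 to 0.359). Replicate 2 also had the higher median score at every time point. Whether the numbers pair the libraries by culture is not in the labels and was not tested. A replicate term was fitted as an alternative.

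Regions were named when they were a member's promoter, in all 10 libraries, or gained or lost, and neighbouring genes when a region lay within 1 kb of their start. Other regions near a member, among them the Btn1a1 intron and Cldn13 flanks, were named after their values were seen. The members, lists and tests were chosen with earlier results of these data known. Sequences were read from RefSeq GRCm38.p6, in which all summits lay within chromosome ends. The promoter table matched 2 of the 4 genes, Fam214b and Tmem184a.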

Additional observations from a re-analysis of the deposited data

How the results depend on the processing

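The count of 1 gene (Fam214b) with a promoter region in all 10 libraries was the same under all 17 alternatives, of which the comprehensive transcript set was chosen after seeing the data. No window region passed limma's threshold under any of 70 alternative fits, replicate block included, where 0 were called in each comparison. Counts of gained and lost regions are small, and 13 of 40 values under other settings moved by more than 1.5 times. With flanks of 50 kb, 1 region was gained at 2 h, 0 at 6 h, and 0 were lost at 12 h and at 24 h, since the called regions lie farther out. With summits widened by 500 bp, 1 was gained at 2 h, and 1 was lost at 2 h, 1 at 6 h and 2 at 24 h. With 100 bp, 1 was gained and 2 were lost at 24 h. With lists of equal size (10698 summits), 1 was gained at 12 h, 0 at 24 h, and 1 was lost at 2 h. The cause was not tested. Leaving out a library of 0 h or of the time point compared loosens the rule, so counts can only hold or grow. Over the 10 libraries left out in turn, gained counts ran from 3 to 8 at 2 h, from 3 to 14 at 6 h (14 without 6 h replicate 1), from 0 to 6 at 12 h and from 2 to 8 at 24 h. Lost counts ran from 0 to 6 at 2 h, from 0 to 3 at 6 h, from 1 to 6 at 12 h and from 1 to 9 at 24 h, with the highest values without 0 h replicate 2, the smaller 0 h list. Leaving out either 0 h library or either library of the time point compared moved each of these counts by more than 1.5 times, except that the 24 h gains kept within it without a 0 h library, the 6 h losses without 6 h replicate 1 and the 12 h losses without 12 h replicate 2. The promoter count stayed at 1 in all 10. Region by region, the upstream Tmem184a region kept its 2 h gain under all 5 other settings, and the Unc13b intron region kept both losses under 4 of 5. The 2 Hist1h3f gains, the gain 34.7 kb upstream of Btn1a1 and the 6 h gain 112 kb downstream of Tmem184a were each kept under 3 of 5, the 6 h gain at 68.3 kb and the 24 h gain upstream of Tmem184a under 4 of 5, and the Hist1h3e gain at 2 h under 1 of 5.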
